A study of Mus musculus with 10 samples.

Results

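The small leucine-rich proteoglycans are secreted proteins of the extracellular matrix (ECM), and 9 of them were followed here in the left ventricle (LV) of young mice together with versican, a large proteoglycan of the same matrix. The 10 genes are Dcn (decorin), Bgn (biglycan), Aspn (asporin), Fmod (fibromodulin), Lum (lumican), Prelp (prolargin), Omd (osteomodulin), Ogn (osteoglycin), Podn (podocan) and Vcan (versican). They were chosen by name, each had 1 row in every gene table, and they are 10 of the 55401 genes listed and 10 of the 11867 genes tested. Because no member fell below the expression limit of a mean FPKM of 1, all 10 were tested.

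LV tissue came from 5 wild-type (WT) mice of C57BL/6 breeding that had undergone neonatal ascending aorta constriction (nAAC) and 5 WT mice that had undergone sham surgery, all at 4 weeks of age, and each library came from 1 mouse. A ligature in this model narrows the aorta of newborn pups so that the LV works against a raised pressure load while the heart is still growing. Both groups underwent surgery as newborns, were raised by their mothers and carried no transgene or deleted allele. The paper states that its groups held female and male mice at random, and sex is not among the sample data used here. The comparison addressed which LV transcripts differ after weeks of pressure load in a young heart. LV tissue was not separated into cell types, so fewer cells of a type and less RNA per cell cannot be told apart in any value below.

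The family shares a small core protein built mainly of leucine-rich repeats, which folds into a curved surface that binds collagen fibrils and sets their diameter and spacing. Most members also carry chondroitin, dermatan or keratan sulfate chains, and several, with decorin and biglycan the best known, bind transforming growth factor beta (TGF-beta). In the heart these transcripts are known mainly from fibroblasts of the interstitium, the valves and the vessel walls. Versican belongs to another family, the hyalectans, in which a very large core protein carries many chondroitin sulfate chains and ties them to hyaluronan, and it is best known from the provisional matrix of developing and injured tissue.

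The libraries were of similar depth, and 1 of them stood apart. The estimated aligned sequence was 4.86 to 6.82 gigabases in nAAC mice and 5.06 to 5.24 in sham mice, judged by the FPKM-to-coverage ratio found most often in a library, and between 11182 and 12455 genes per library reached an FPKM of 1. FPKM is a level corrected for transcript length and sequencing depth. Sham 4 lay at -45.2 on the second principal component, which held 19.96% of the variance, whereas the other 9 libraries lay between -15.1 and 21.1. The atrial genes Myl7, Sln and Myl4 varied within both groups, with a summed FPKM of 2.03 to 227 in nAAC mice and 3.05 to 44.7 in sham mice, and nAAC 3 and nAAC 2 held the 2 highest sums. The cardiomyocyte markers, at a summed FPKM of at least 6929 in every mouse, matched heart muscle but do not tell the LV from atrial tissue. Mitochondrial genes took 32.8% to 39.9% of the TPM in nAAC mice and 33.7% to 49.8% in sham mice.

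Several of the genes sit side by side in the genome (GRCm38, the build named mm10 in the labels). Aspn, Omd and Ogn follow each other on the plus strand of chromosome 13, with gaps of 14.9 and 15.2 kb, and Ecm2, a related gene, precedes Aspn by 11.7 kb. Cenpp, on the minus strand, spans all of Aspn, Omd and Ogn. Dcn and Lum lie 47.0 kb apart on the plus strand of chromosome 10. Prelp and Fmod lie 115.8 kb apart on opposite strands of chromosome 1. The windows run from 250 bases before to 50 bases after the RefSeq start, which for Prelp and Ogn lies some bases away from the start in the gene tables. They are shown for Bgn and Prelp, which rose. Vcan and Fmod rose more than Prelp, at log2 FCs of 1.93 and 1.87 against 1.74, and their windows are not shown. Those of Aspn and Ogn are shown because the signs of their log2 FC differed within 1 cluster, although Ogn did not pass the test. The sequences are from RefSeq on GRCm38.p6 and read 5′ to 3′ along the gene's own strand, with capitals marking matches to the motifs described after them.
Bgn, plus strand, chrX:73483351-73483650: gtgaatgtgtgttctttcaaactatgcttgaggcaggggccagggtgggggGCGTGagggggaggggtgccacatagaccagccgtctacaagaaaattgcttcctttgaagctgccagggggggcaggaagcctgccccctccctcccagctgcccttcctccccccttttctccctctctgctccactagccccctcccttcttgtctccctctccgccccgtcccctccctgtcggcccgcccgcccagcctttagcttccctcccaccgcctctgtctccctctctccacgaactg
Prelp, minus strand, chr1:133921352-133921651: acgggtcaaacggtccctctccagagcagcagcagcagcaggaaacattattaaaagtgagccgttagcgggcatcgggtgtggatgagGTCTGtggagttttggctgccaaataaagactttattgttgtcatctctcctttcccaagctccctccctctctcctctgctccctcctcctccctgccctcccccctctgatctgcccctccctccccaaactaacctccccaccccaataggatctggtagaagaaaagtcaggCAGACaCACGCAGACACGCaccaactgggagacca
Aspn, plus strand, chr13:49544193-49544492: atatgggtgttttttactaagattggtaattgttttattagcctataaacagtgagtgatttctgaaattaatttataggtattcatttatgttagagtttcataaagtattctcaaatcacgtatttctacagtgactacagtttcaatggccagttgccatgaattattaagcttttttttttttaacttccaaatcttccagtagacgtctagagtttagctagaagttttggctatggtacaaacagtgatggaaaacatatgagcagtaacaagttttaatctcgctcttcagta
Ogn, plus strand, chr13:49607765-49608064: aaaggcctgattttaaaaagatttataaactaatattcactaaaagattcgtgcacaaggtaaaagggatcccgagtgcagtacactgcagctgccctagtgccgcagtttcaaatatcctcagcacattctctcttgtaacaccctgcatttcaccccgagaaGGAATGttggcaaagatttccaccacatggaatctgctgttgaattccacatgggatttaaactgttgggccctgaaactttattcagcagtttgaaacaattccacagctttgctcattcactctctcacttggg

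Windows were found for 8 of the 10 genes, all except Dcn and Lum, and Podn had 2. Both strands were searched for 4 short motifs. GCGTG, the core of the element bound by the aryl hydrocarbon receptor (AHR), occurred in Bgn, Prelp and Podn, and in 32.4% of all 32851 windows of this length. It was absent from the windows of Vcan and Fmod, which rose more than Prelp. CAGAC, a SMAD motif, occurred in Fmod, Prelp and Podn, and in 49.6% of all windows. CATTCC, the motif of the TEAD factors, occurred in Ogn, and in 14.7% of all windows. TGANTCA, the AP-1 motif, occurred in none of the 8 genes and in 7.81% of all windows. In Bgn the GCGTG match starts 199 bases before the RefSeq start, and in Prelp the letters CACGC, its reverse complement, stand 2 times after that start and overlap a CAGAC match. Such short matches are frequent by composition and describe the letters only. The windows also differ in base composition, with 63.7% G and C in Bgn and 55.3% in Prelp against 31.0% in Aspn and 42.3% in Ogn.

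After nAAC, 7 of the 10 genes were up-regulated at an adjusted p below 0.05 (Bgn, Vcan, Fmod, Prelp, Aspn, Lum and Dcn), and none was down-regulated. By the same rule 27.1% of all tested genes were higher and 4.6% lower in nAAC mice. With a log2 fold change (FC) above 1 as well, the rule for differentially expressed genes (DEGs), 5 members were up-regulated (Bgn, Vcan, Fmod, Prelp and Aspn), against 5.01% of all tested genes, and none was down-regulated, against 0.893%. In 5 members (Dcn, Bgn, Fmod, Prelp and Vcan) the nAAC mice were all above the sham mice, as they were for 18.9% of all tested genes, and no member had all nAAC mice below, as 3.46% of all genes did. The median log2 FC of the 10 genes was 0.90 and that of all tested genes 0.22. The log2 FC is the difference of group means of log2(FPKM + 1), nAAC minus sham, which understates the change of genes at a low level, and the adjusted p is from limma over all tested genes.

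**Figure D1:**
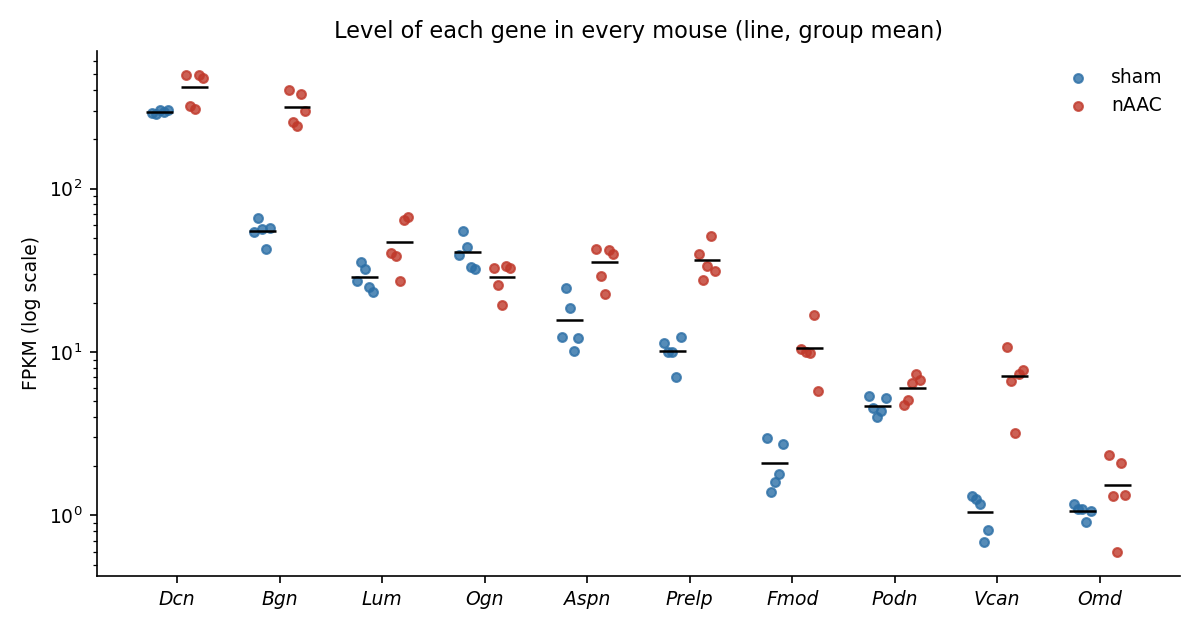
FPKM of each of the 10 genes in every mouse on a log axis, with sham mice in blue, nAAC mice in red and a black line at each group mean. The red and blue points are fully separated for Dcn, Bgn, Prelp, Fmod and Vcan, and Ogn is the gene whose nAAC mean, at 28.7, lies below its sham mean, at 40.8.

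Biglycan showed the largest change among the class I members, the chondroitin and dermatan sulfate proteoglycans and their relative asporin. Bgn (ENSMUSG00000031375, chromosome X, 73483602 to 73495933, plus strand) encodes a core protein that usually carries a pair of such chains and, once released from the matrix, can engage Toll-like receptors. Its FPKM was 402, 255, 243, 382 and 299.5 in nAAC 1 to 5 and 54.6, 65.7, 56.3, 42.6 and 57.4 in sham 1 to 5. The lowest nAAC mouse was well above the highest sham mouse. The means were 316 ± 72.6 (SD, n = 5) and 55.3 ± 8.28 (SD, n = 5), which is a ratio of 5.72. The log2 FC was 2.48 (SE 0.17, limma adjusted p = 6.17e-07), and 99.6% of all tested genes had a smaller log2 FC. The two-sided exact permutation test of 5 against 5 mice gave p = 0.00794, the smallest value this design allows.

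Decorin, the most abundant of the 10 by FPKM, changed far less. Dcn (ENSMUSG00000019929, chromosome 10, 97479609 to 97518143, plus strand) encodes a core protein with a single chain that binds type I collagen and TGF-beta. Its FPKM was 498, 322, 309, 498 and 477 in nAAC 1 to 5 and 291, 288, 304, 295 and 301 in sham 1 to 5. The groups did not overlap, but the gap was narrow, with nAAC 2 and nAAC 3 close to the sham mice and the other 3 nAAC mice well above. The spread was unequal too, with a coefficient of variation of 23.0% in nAAC mice and 2.36% in sham mice. The log2 FC was 0.47 (SE 0.17, limma adjusted p = 0.0459), and the exact permutation test gave p = 0.00794. This call rested on the scaling, on covariates and on single mice. With Xist as a covariate the log2 FC was 0.33 (limma adjusted p = 0.291). After median-ratio scaling, in which the middle gene of each library is set to a common reference, the log2 FC was 0.19 (limma adjusted p = 0.430), and the call held in 3 of the 10 fits that left out 1 mouse.

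Asporin, a class I member known for a stretch of aspartate residues in place of the usual chain sites, rose by a log2 FC of 1.16 (SE 0.24, limma adjusted p = 0.00275). Aspn (ENSMUSG00000021388, chromosome 13, 49544443 to 49567565, plus strand) had an FPKM of 42.6, 29.3, 22.6, 42.4 and 39.9 in nAAC 1 to 5 and of 12.3, 24.6, 18.7, 10.2 and 12.2 in sham 1 to 5. The groups overlapped through nAAC 3, which lay below sham 2. The exact permutation test gave p = 0.0159. Cenpp lies across Aspn on the other strand and shares 7 exon bases with it, at an FPKM of at most 1.47.

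Among the class II members, which are rich in keratan sulfate or tyrosine sulfate, Prelp and Fmod rose strongly. Prelp (ENSMUSG00000041577, chromosome 1, 133910304 to 133921414, minus strand) encodes a protein that links basement membranes to collagen. Its FPKM was 39.8, 27.4, 33.7, 51.0 and 31.3 in nAAC 1 to 5 and 11.3, 9.94, 10.0035, 7.07 and 12.4 in sham 1 to 5. The groups were far apart, with the lowest nAAC value above the highest sham value by more than the whole range of the sham mice. The means were 36.6 ± 9.22 (SD, n = 5) and 10.1 ± 1.99 (SD, n = 5), with a log2 FC of 1.74 (SE 0.18, limma adjusted p = 1.23e-05) and an exact permutation p = 0.00794. A predicted gene on the other strand, Gm15851, shares 350 exon bases with Prelp and was listed at 0 in all mice.

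Fibromodulin, a collagen-binding member that acts on the cross-linking and thickening of fibrils, rose about as much as prolargin on the log2(FPKM + 1) scale, at a lower level. The ratio of means was larger for Fmod, at 5.04 against 3.61 for Prelp. With a pseudocount of 0.1 their log2 FCs were 2.26 and 1.83. The FPKM of Fmod (ENSMUSG00000041559, chromosome 1, 134037254 to 134048277, plus strand) was 10.5, 9.97, 9.91, 16.7 and 5.79 in nAAC 1 to 5 and 2.995, 1.39, 1.61, 1.79 and 2.72 in sham 1 to 5. nAAC 4 was the highest and nAAC 5 the lowest of the nAAC mice, and all 5 lay above the sham mice. This was a log2 FC of 1.87 (SE 0.22, limma adjusted p = 4.85e-05), with an exact permutation p = 0.00794.

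Lumican, a keratan sulfate proteoglycan that keeps collagen fibrils thin and evenly spaced in the cornea, rose less and with overlap. Lum (ENSMUSG00000036446, chromosome 10, 97565128 to 97572703, plus strand) had an FPKM of 40.1, 38.7, 27.1, 64.5 and 66.7 in nAAC 1 to 5 and of 27.1, 35.6, 32.4, 25.0 and 23.2 in sham 1 to 5. nAAC 4 and nAAC 5 were clearly high, whereas nAAC 3 lay within the sham range. Its log2 FC was 0.65 (SE 0.23, limma adjusted p = 0.0464), the exact permutation test gave p = 0.0476, and the call held in 2 of the 10 fits that left out 1 mouse. After median-ratio scaling the log2 FC was 0.37 (limma adjusted p = 0.263), and with Xist as a covariate it was 0.68 (limma adjusted p = 0.133).

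Osteomodulin, a keratan sulfate member best known from bone, was scarce and did not pass the test. The FPKM of Omd (ENSMUSG00000048368, chromosome 13, 49582462 to 49592822, plus strand) was 2.36, 1.32, 0.599, 2.10 and 1.33 in nAAC 1 to 5 and 1.18, 1.09, 1.09, 0.908 and 1.07 in sham 1 to 5. The nAAC mice lay on both sides of the sham mice, with nAAC 3 the lowest of all 10. The log2 FC was 0.25 (95% interval -0.12 to 0.62, limma adjusted p = 0.279), with an exact permutation p = 0.254. Without nAAC 3 it was 0.41 (limma adjusted p = 0.0440).

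Osteoglycin, the class III member also called mimecan, was the 1 gene of the 10 with a lower mean in nAAC mice. Ogn (ENSMUSG00000021390, chromosome 13, 49608046 to 49624501, plus strand) encodes a small leucine-rich protein found in vessel walls and in bone. Its FPKM was 32.6, 25.6, 19.3, 33.6 and 32.6 in nAAC 1 to 5 and 39.5, 55.0, 44.2, 33.0 and 32.2 in sham 1 to 5. The groups overlapped, since 3 nAAC mice were about level with sham 4 and sham 5. The log2 FC was -0.49 (SE 0.19, 95% interval -0.89 to -0.09), and it did not pass the threshold, with a limma adjusted p = 0.0592 and an exact permutation p = 0.0635. Relative to the general shift of the tested genes the difference was larger, at -0.72, and 3.92% of all tested genes had a lower log2 FC. With median-ratio scaling, which brings the median of all genes to about 0, Ogn was down-regulated (log2 FC -0.76, limma adjusted p = 0.0133), as it was with upper-quartile scaling (log2 FC -0.75, limma adjusted p = 0.0201). It also passed without sham 4 or without sham 5, the 2 sham mice with the lowest values, at log2 FCs of -0.56 and -0.57.

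Podocan, a class V member described as a brake on smooth muscle growth, did not pass the test. The FPKM of Podn (ENSMUSG00000028600, chromosome 4, 108014791 to 108096445, minus strand) was 4.77, 5.12, 6.43, 7.32 and 6.70 in nAAC 1 to 5 and 5.40, 4.51, 4.01, 4.37 and 5.25 in sham 1 to 5. nAAC 3 to 5 lay above all sham mice, and nAAC 1 and nAAC 2 lay among them. Its log2 FC was 0.30 (95% interval 0.02 to 0.58, limma adjusted p = 0.0899), with an exact permutation p = 0.0476. The direction changed to -0.084 once trends with transcript length and GC content were removed. Scp2, which overlaps Podn on the same strand without sharing exon bases, stood at a mean FPKM of 56.0 in nAAC mice and 64.8 in sham mice, and the deposited coverage of Podn was low for its FPKM, as given below.

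Versican showed the largest ratio of means of the 10 genes, from a low level. Vcan (ENSMUSG00000021614, chromosome 13, 89655312 to 89742509, minus strand) had an FPKM of 10.8, 6.69, 3.20, 7.32 and 7.80 in nAAC 1 to 5 and of 1.31, 1.25, 1.17, 0.687 and 0.811 in sham 1 to 5. The lowest nAAC mouse lay above the highest sham mouse, although nAAC 1 and nAAC 3 differed widely from each other. The means were 7.16 ± 2.72 (SD, n = 5) and 1.05 ± 0.280 (SD, n = 5), a ratio of 6.84. Its log2 FC was 1.93 (SE 0.22, limma adjusted p = 3.30e-05) on the scale with a pseudocount of 1 and 2.60 with a pseudocount of 0.1, and the exact permutation test gave p = 0.00794. The annotation lists 9 transcripts of Vcan, which differ in the exons that carry the chondroitin sulfate chains, and the gene tables do not separate them.

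**Figure D2:**
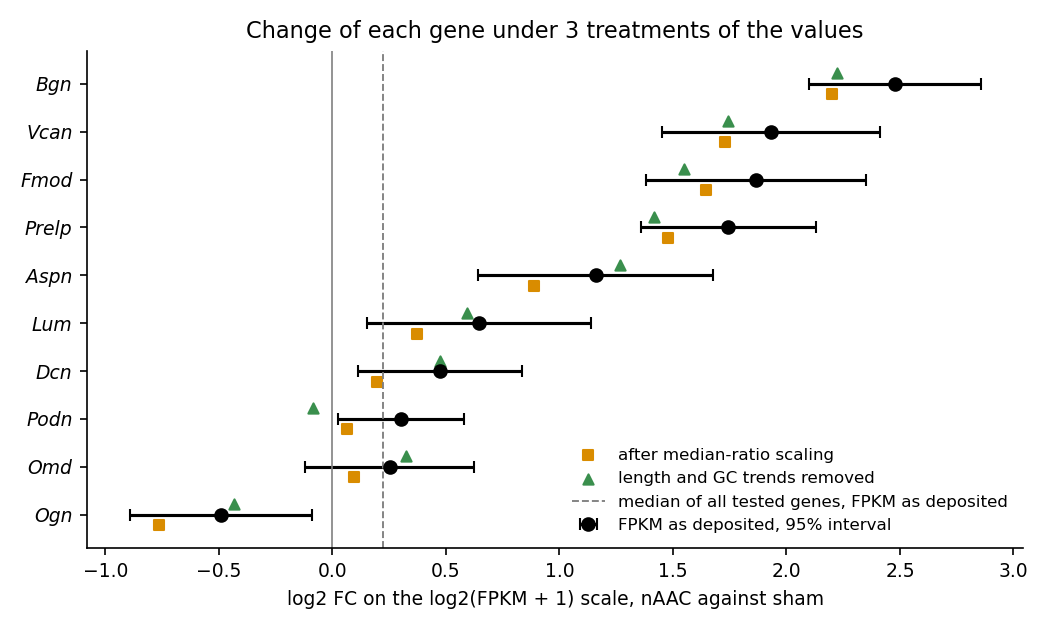
The log2 FC of each gene, nAAC against sham, with its 95% interval (black circles), after median-ratio scaling (orange squares) and with transcript length and GC trends removed (green triangles). Bgn, Vcan, Fmod, Prelp and Aspn stay at 0.89 or above under all 3, whereas Dcn, Lum, Omd and Podn lie near the median of all genes (dashed line, 0.22) or between it and 0.65 as deposited, and Ogn stays below 0.

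The 5 genes with the largest changes were the stable ones. Bgn, Vcan, Fmod, Prelp and Aspn kept their direction and passed the adjusted p under all 21 alternatives computed, with log2 FCs of 2.20 to 2.69 for Bgn, 1.65 to 2.60 for Vcan, 1.55 to 2.26 for Fmod, 1.42 to 1.94 for Prelp and 0.89 to 1.43 for Aspn. Leaving out nAAC 2 and nAAC 3, the 2 libraries highest in atrial genes, gave 8 members up-regulated and 5 DEGs. Of the 11867 tested genes, 2374 were then up-regulated, 622 of them as DEGs. Leaving out sham 4 gave 5 member DEGs as well, against 665 up-regulated DEGs over all genes. Without those 2 nAAC mice, Dcn and Lum had log2 FCs of 0.73 and 0.95, and Ogn one of -0.27 (limma adjusted p = 0.309). Whether the atrial genes have a part in these values was not tested.

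The mice of 1 group also differed in a shared way. nAAC 3 had the lowest FPKM of the nAAC mice in 7 of the 10 genes (Dcn, Bgn, Aspn, Lum, Omd, Ogn and Vcan), and nAAC 4 had the highest in 5 (Dcn, Fmod, Prelp, Ogn and Podn). nAAC 1 was the highest in Bgn, Aspn, Omd and Vcan. Among sham mice, sham 4 was the lowest in 5 genes (Bgn, Aspn, Prelp, Omd and Vcan). Over the 10 libraries, after each group was centred on its own mean, the genes outside the family whose log2 values followed the mean of the 10 most closely were Wee1 (Pearson r = 0.97), Gabpb2 (r = 0.97) and Col4a4 (r = 0.96), a kinase of the cell cycle, a subunit of a transcription factor and a chain of basement membrane collagen. The libraries share their depth and composition across genes, and 62 of 11857 genes had an r above 0.9, so these values describe the likeness only.

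Because the genes rose unequally, the make-up of the group changed. The summed FPKM of the 10 genes averaged 911 ± 202 (SD, n = 5) after nAAC and 455 ± 25.7 (SD, n = 5) after sham surgery. Dcn made up 44.7% to 49.2% of this sum in nAAC mice and 59.1% to 70.1% in sham mice, whereas Bgn made up 30.9% to 37.1% and 10.1% to 13.5%. Prelp went from 1.68% to 2.76% in sham mice to 3.23% to 4.99% in nAAC mice, and Vcan from 0.163% to 0.294% to 0.475% to 0.996%. The share of Ogn was 2.86% to 3.55% in nAAC mice and 7.19% to 11.3% in sham mice. For these 5 genes the groups did not overlap, and for Aspn, Fmod, Lum, Omd and Podn they did. By the deposited coverage the shares were others, with Dcn at 27.1% to 30.2% in nAAC mice and 33.8% to 45.8% in sham mice, Bgn at 27.5% to 34.0% and 9.62% to 12.0%, Prelp at 7.26% to 11.4% and 4.03% to 6.55%, and Ogn at 6.54% to 7.89% and 17.045% to 23.6%. The direction was the same for these 4 genes, and their groups did not overlap. Shares add up to a fixed total, so a rise of Bgn lowers the share of the rest by construction. These shares are defined for the 10 genes only, so no share of all tested genes with groups apart stands beside those counts.

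**Figure D3:**
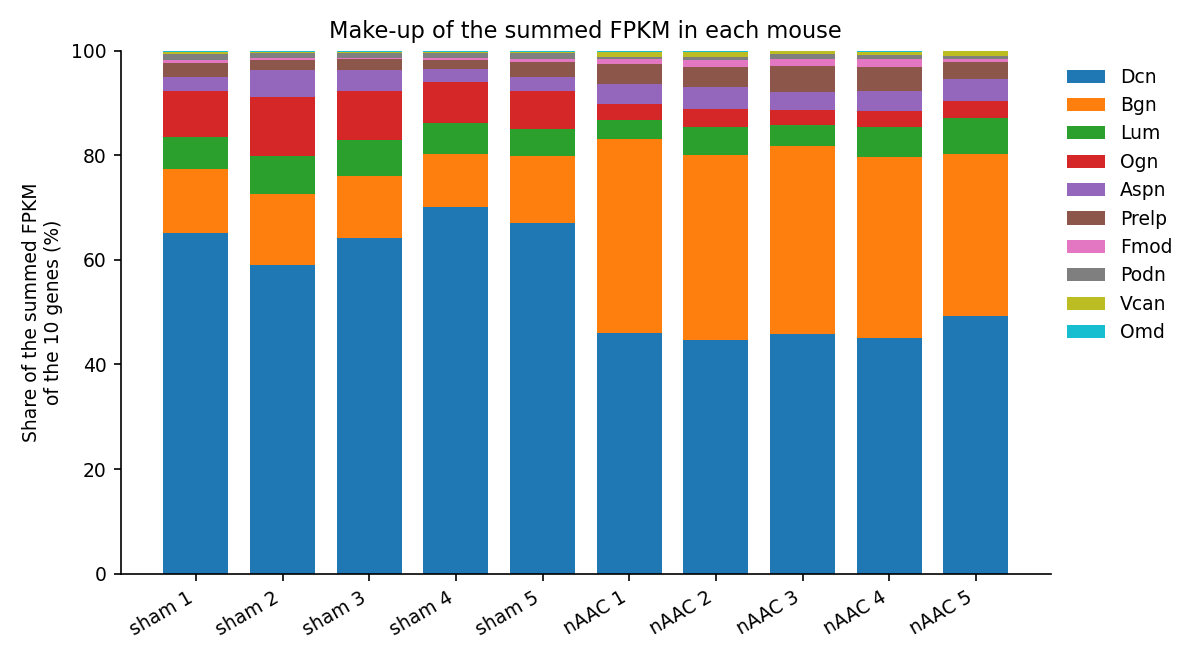
Share of each gene in the summed FPKM of the 10 genes, in percent, with 1 stacked bar per mouse. The Bgn segment takes 30.9% to 37.1% in the 5 nAAC mice and 10.1% to 13.5% in the 5 sham mice, and the Dcn segment is correspondingly smaller.

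The ratio of each gene to decorin in the same mouse is free of the scaling between libraries. Bgn stood at 0.628 to 0.808 of Dcn in nAAC mice and at 0.144 to 0.228 in sham mice. Fmod, Prelp and Vcan were likewise higher relative to Dcn in every nAAC mouse, so that this held for 4 of the 9 genes, against 4.27% of the 11815 tested genes other than Dcn that were above 0 in every mouse. Ogn was lower relative to Dcn in every nAAC mouse, at 0.0625 to 0.0794 against 0.107 to 0.191, as were 9.12% of the same genes. Aspn, Lum, Omd and Podn overlapped on this measure. Aspn and Ogn, of the same cluster on chromosome 13 and with their start regions printed above, had an Aspn to Ogn ratio of 1.15 to 1.31 in nAAC mice and 0.309 to 0.446 in sham mice. The Lum to Ogn ratio was 1.23 to 2.04 and 0.647 to 0.758, and the Omd to Ogn ratio, for adjacent members of that cluster, overlapped at 0.0311 to 0.0724 and 0.0198 to 0.0331. Only 3.92% of all tested genes had a lower log2 FC than Ogn, so most genes stand higher relative to it. The share of all genes with groups apart was not computed for the ratios to Ogn.

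**Figure D4:**
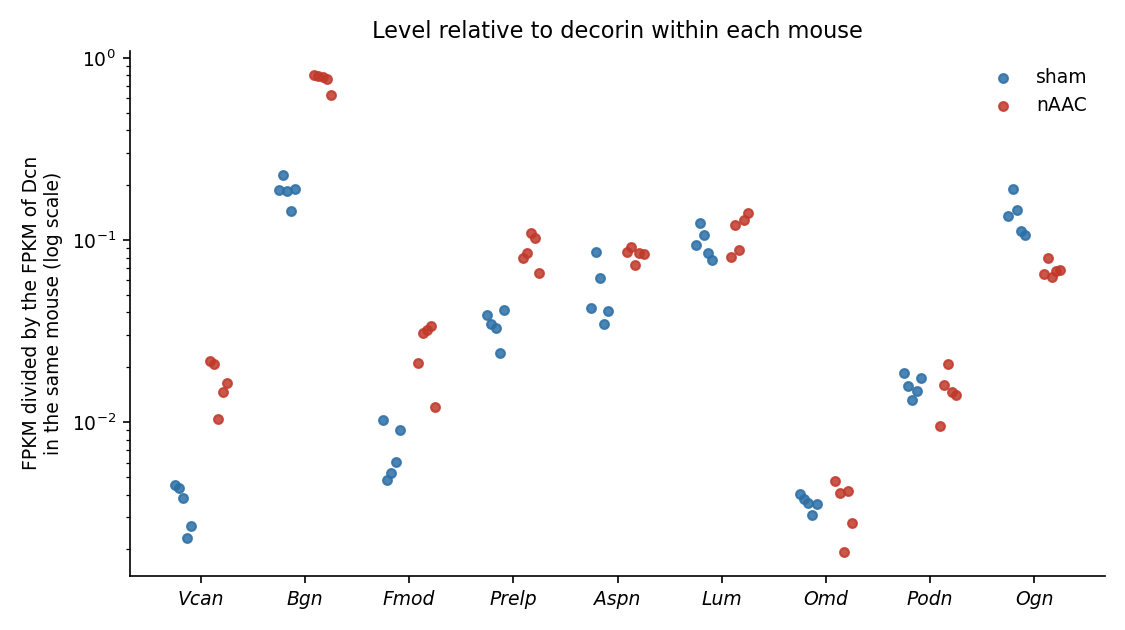
FPKM of each gene divided by the FPKM of Dcn in the same mouse, on a log axis, with sham mice in blue and nAAC mice in red. All red points lie above all blue points for Vcan, Bgn, Fmod and Prelp and below them for Ogn, and the colours mix for the other 4 genes.

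The order of the genes by mean FPKM differed between the groups. In sham mice it was Dcn, Bgn, Ogn, Lum, Aspn, Prelp, Podn, Fmod, Omd and Vcan, and each gene exceeded the next in 5 of 5 mice except for Aspn over Prelp (4 of 5) and Omd over Vcan (2 of 5). In nAAC mice it was Dcn, Bgn, Lum, Prelp, Aspn, Ogn, Fmod, Vcan, Podn and Omd. Here Prelp exceeded Aspn in 2 of 5 mice, Fmod exceeded Vcan in 3, Vcan exceeded Podn in 3 and Lum exceeded Prelp in 4, so these neighbours cannot be ranked beyond their spread. By mean FPKM Ogn thus went from a place above Lum, Aspn and Prelp to one below all 3. In nAAC 5, however, Ogn stood above Prelp, at a Prelp to Ogn ratio of 0.958. Vcan, which could not be ranked apart from Omd in sham mice, stood above Omd in nAAC mice.

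Levels between genes depended on which deposited column was read. The FPKM-to-coverage ratio of Lum, Ogn and Prelp was the commonest one in each library. In multiples of that ratio, Bgn stood at 2.52 to 2.53, Dcn at 3.66 to 3.67 and Podn at 21.5 to 23.0. By coverage per gigabase Bgn was above Dcn in 4 of 5 nAAC mice, at means of 125 and 115, whereas in sham mice Dcn led at 80.7 and Bgn, at 21.9, came after Ogn and Lum. By the same measure Podn was the lowest of the 10 in both groups. Each gene's own ratio was nearly the same in all mice, except for Omd (1.01 to 1.25) and Vcan (1.37 to 1.62), so the comparisons between groups changed less than the levels did. Tested on coverage in place of FPKM, 6 members were up-regulated, as were 3268 of the 11867 tested genes. Lum stood at a limma adjusted p = 0.0513, Vcan at a log2 FC of 1.65 and Podn at 0.066, against 0.30 for Podn on FPKM. A pseudocount of 1 was added to coverage per gigabase too, which shrinks the log2 FC of genes at a low coverage. Podn had means of only 0.270 in nAAC mice and 0.212 in sham mice there, so its small log2 FC does not show that the difference was absent. DEGs over all genes, on this same scale, numbered 534, against 701 on FPKM. By coverage the Bgn to Dcn ratio was 0.912 to 1.17 in nAAC mice and 0.210 to 0.331 in sham mice.

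Markers of fibroblasts, the cells best known for making these proteins, also moved with the surgery. The counts of every list from here on stand beside 27.1% of all tested genes called higher and 4.6% called lower. As DEGs these shares were 5.01% and 0.893%. Of the 6 fibroblast markers, Pi16 (log2 FC 1.97), Tcf21 (0.84) and Thy1 (0.79) were up-regulated, and Ddr2, Pdgfra and Dpep1 did not pass, at 0.43, 0.26 and -0.21, with Dpep1 down-regulated after median-ratio scaling. Their summed FPKM was 79.6 to 104 in nAAC mice and 40.1 to 58.4 in sham mice, and no defining marker was at 0. Pi16 alone held 39.2 to 51.4 and 8.10 to 14.8 of these sums, so most of their difference lay in this 1 gene. Without Pi16 the mean log2 value of the fibroblast markers was 2.98 to 3.43 in nAAC mice and 2.67 to 2.97 in sham mice. Of the 4 markers of activated fibroblasts, Postn (3.78), Cthrc1 (1.37) and Acta2 (0.85) were up-regulated, and Fap stood at -0.037. The sham mean of Cthrc1 was 0.156, so it reached the expression limit only through the nAAC mice. When the mean log2 value of the 6 fibroblast markers was subtracted in each mouse, Bgn, Prelp and Vcan remained higher in every nAAC mouse than in every sham mouse, as did 2.6% of all tested genes. Ogn was lower in every nAAC mouse, as were 39.3% of all genes. Dcn, Aspn, Fmod, Lum, Omd and Podn overlapped. Without Pi16 in the marker mean, an alternative chosen after the values were seen, Fmod joined Bgn, Prelp and Vcan, with 4.63% of all genes above and 16.7% below, and Ogn remained below.

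Other cell types were read from their markers in the same way, and their part in the values of the 10 genes was not tested. Of 7 mural cell markers, Myh11 (log2 FC 1.25), Cspg4 (1.24), Cnn1 (1.17) and Pdgfrb (0.69) were up-regulated. Rgs5 and Kcnj8 stood at -0.0024 and -0.0026, and Abcc9 stood at -0.53. Abcc9 passed as down-regulated after median-ratio scaling, after upper-quartile scaling and with length and GC trends removed. The mural markers had summed FPKMs that overlapped at 197 to 301 in nAAC mice and 159 to 288 in sham mice. Of 5 endothelial markers Kdr was up-regulated (0.66), and of 6 macrophage and leukocyte markers C1qa was (1.202). Of 6 cardiomyocyte markers, Actn2 was up-regulated (0.67) and Pln (-0.86) and Tnni3 (-0.82) were down-regulated. None of the 4 mesothelial markers (Wt1, Upk3b, Upk1b and Msln) passed, with sums of 6.61 to 20.8 and 6.27 to 10.03, and neither did the 3 atrial genes or the 2 erythroid genes. Scx (2.06) and Sox9 (1.32), transcription factors of tendon and cartilage, were up-regulated, at FPKMs of 10.8 to 22.1 and 2.17 to 3.16 in nAAC mice and 1.03 to 4.46 and 0.258 to 0.555 in sham mice. Cnn1 and Sox9 reached the expression limit only through the nAAC mice, at sham means of 0.881 and 0.377. Tnmd, which encodes the tendon protein tenomodulin, was listed at 0 in all 5 sham mice and at 0.807 to 1.92 in nAAC mice, below the expression limit over all mice.

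Of the collagens whose fibrils these proteins bind, 5 of the 6 fibrillar collagen genes tested were up-regulated, all as DEGs, with a median log2 FC of 1.70 over the 6. Col1a1 rose by a log2 FC of 2.09, Col1a2 by 2.004, Col5a2 by 1.84 and Col3a1 by 1.56. Col5a3, named after its value was seen, was the 1 that did not pass, at -0.032. The Bgn to Col1a1 ratio of FPKM was 5.95 to 8.39 in nAAC mice and 4.06 to 6.36 in sham mice, so that the groups overlapped, and the ratios of Fmod and Vcan to Col1a1 overlapped as well. The Bgn to Col3a1 ratio was higher in every nAAC mouse, at 2.26 to 3.38 against 1.14 to 2.14. The Dcn to Col1a1 ratio did not overlap, at 7.52 to 10.9 in nAAC mice and 21.6 to 39.7 in sham mice. Col1a1 rose far more than the median of all tested genes (log2 FC 0.22), so most genes stand lower relative to it. The share of all genes with groups apart was not computed for the ratios to Col1a1 and Col3a1.

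Enzymes that build the chondroitin and dermatan sulfate chains were in part up-regulated, and those of keratan sulfate did not pass the test. Of 22 genes for the linker and for chondroitin and dermatan chains, 17 were tested and 11 were up-regulated, against 27.1% of all tested genes. None was down-regulated and 6 did not pass, with a median log2 FC of 0.45, against 0.22 over all tested genes. The largest change was that of Chpf (1.46), a chondroitin polymerizing factor and the 1 DEG of the list, followed by Chst12 (0.77), a chondroitin sulfotransferase, Chpf2 (0.77) and Dse (0.62), the epimerase that turns chondroitin into dermatan sulfate. This count depended on the scaling, with 5 of the 17 up-regulated after median-ratio scaling (Chpf, Chst12, Chpf2, Dse and B3galt6, the last of which had a sham mean below the expression limit) and 4 up-regulated and 1 down-regulated with length and GC trends removed. Over all tested genes, 1563 of 11867 were up-regulated after median-ratio scaling. With length and GC trends removed, 1800 of 11860 were up-regulated and 1748 down-regulated. Of the 5 keratan sulfate enzymes, B4galt4 and Chst1 were tested, and neither passed, at 0.16 and 0.24. Bmp1, a protease that trims the propeptide of biglycan, was up-regulated (0.87), and Tll1 and Tll2, its relatives, were below the expression limit.

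The surroundings of versican changed unevenly. Of 7 proteases of the versican-cleaving group, 6 were tested and 3 were up-regulated, all as DEGs, namely Adamts8 (log2 FC 1.60), Adamts20 (1.54) and Adamts1 (1.11), while Adamts9, the most abundant of the other 3, stood at 0.15. Adamts8 and Adamts20 had sham means of 0.147 and 0.0228 and were tested only because of their level in nAAC mice, so their calls add nothing to the values themselves. Adamts20 went from an FPKM of 0.0147 to 0.0377 in sham mice to 1.41 to 3.01 in nAAC mice. Of 11 genes of hyaluronan synthesis, binding and turnover, 5 were tested and 4 were up-regulated, namely Cd44 (1.16), a hyaluronan receptor, the hyaluronidases Hyal2 (0.92) and Hyal1 (0.91), and Cemip2 (0.46). The synthases Has1, Has2 and Has3 had FPKMs of at most 0.498 in any mouse and were not tested. Neither were the other hyalectans and the link proteins, all 7 of which lay below the expression limit, and Acan, which encodes aggrecan, was the highest of them in every nAAC mouse, at 0.245 to 0.650 against 0 to 0.0520 in sham mice.

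Receptors and ligands around the family were higher as well. Of 7 receptors of soluble members, 5 were tested and all 5 were up-regulated, as were 27.1% of all tested genes. Among them were Lrp1 (log2 FC 1.69), an endocytic receptor of decorin, Tlr4 (1.44) and Tlr2 (0.62), the Toll-like receptors of biglycan, and Kdr (0.66), with a list median of 0.66. After median-ratio scaling Lrp1, Tlr4 and Tlr2 still passed and Kdr and Igf1r did not. All 3 TGF-beta genes were DEGs, with Tgfb2 at 2.17, Tgfb3 at 1.34 and Tgfb1 at 1.01. Of the 9 further family genes, 3 were tested, and Tsku (1.04, limma adjusted p = 1.22e-05), which encodes the class IV member tsukushi, was up-regulated, at an FPKM of 1.80 to 2.29 in nAAC mice and 0.334 to 0.735 in sham mice. It reached the expression limit only through the nAAC mice, where it was higher. Ecm2 and Chad did not pass, at 0.52 and 0.72. Kera, on the far side of Lum from Dcn on chromosome 10, was listed at 0 in all mice. After median-ratio scaling the number past the adjusted p stayed at 5 for the fibrillar collagens and 3 for the TGF-beta genes, against 1563 of all 11867 tested genes. Adamts1 still passed as well, and Adamts8 and Adamts20 are left out here because they were tested only through the nAAC mice. Tgfb1, Adamts1, Tsku, Cd44 and C1qa were no longer DEGs. Cemip2, Acta2, Pdgfrb, Kdr and Igf1r no longer passed. Neither did Xylt2, B4galt7, Chst15, Chsy1, Dsel and Chst14 among the chain enzymes. No gene of any list that passed changed direction.

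**Figure D5:**
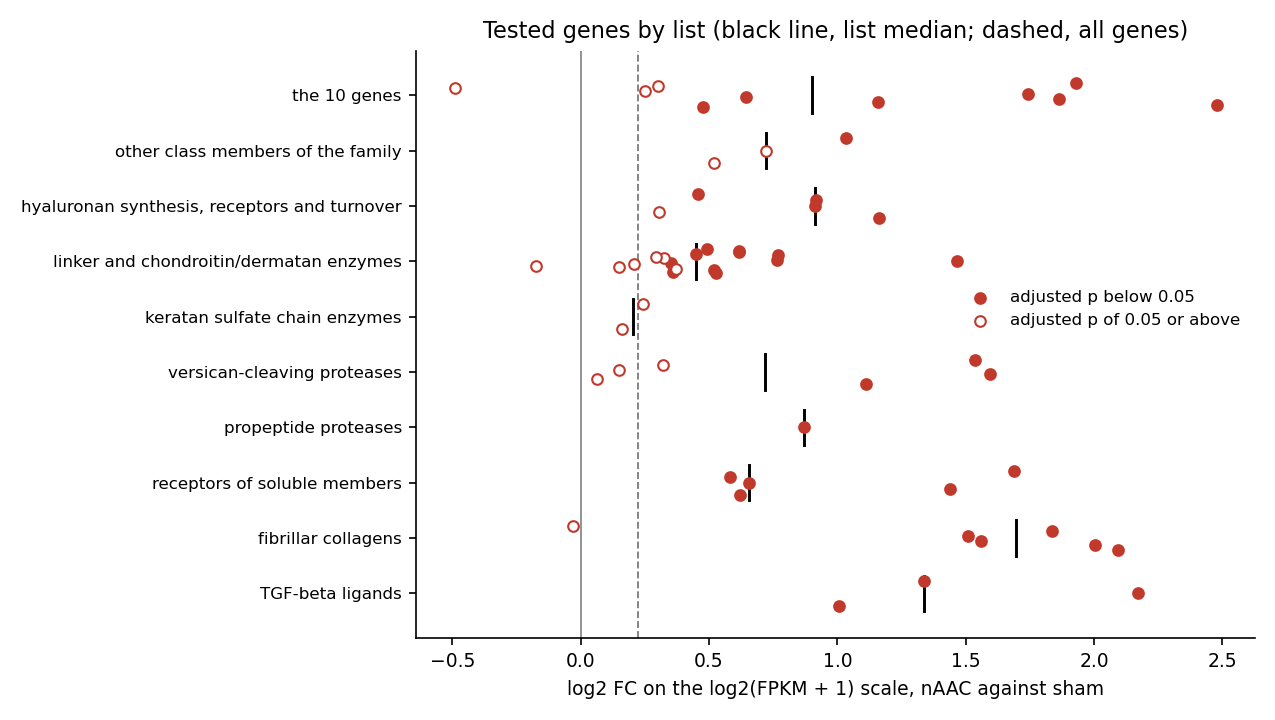
The log2 FC of every tested gene, nAAC against sham, for the 10 genes and for 9 lists of genes around them, with filled points at an adjusted p below 0.05, a black line at each list's median and a dashed line at the median of all tested genes (0.22). The medians of the fibrillar collagens (1.70) and the TGF-beta ligands (1.34) lie above that of the 10 genes (0.90), and the keratan sulfate enzymes lie near the dashed line.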

How the data were processed

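Total RNA of LV tissue was sequenced from NEBNext libraries in the study. The authors deposited, for each mouse, 1 gene table with 3 value columns. The deposited coverage is the mean read depth over a gene, the deposited FPKM is normalized by the authors for length and depth, and TPM, also deposited, is a rescaling of FPKM to a fixed total. The build is mm10 per the labels. The aligner, the quantification tool and the use of strand are not given in the sources used here. The positions of 99.4% of 55141 shared genes matched GENCODE M21.

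Between 7 and 12 repeated rows per table were summed by gene ID. These values do not give back whole read counts, so no count model was run. The log2(FPKM + 1) values of genes whose mean FPKM reached 1 were compared with limma 3.58.1 (R 4.3.3, mean-variance trend, Benjamini-Hochberg adjustment over all 11867), without covariates. A DEG passed an adjusted p of 0.05 and changed by a log2 FC above 1 in either direction. For single members two-sided exact permutation tests were added. Depth gives no counting interval here, so precision rests on the spread between mice, and p values cover these 10 mice only. All 10 members are named. From each list the rule was to name up to 4 genes, those with the largest changes among those past the adjusted p, then the most abundant. Fewer were named from the endothelial, macrophage and some other lists, and genes beyond the rule were named after their values were seen. The members and lists were chosen with earlier results of these data known. Fits were tested on simulated data.

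Alternatives comprised TPM, scaling by the median ratio or the upper quartile, no filter, a pseudocount of 0.1, a replicate block, an Xist covariate, removal of length and GC trends by loess, and leaving out each mouse. Rescaling without mitochondrial genes, coverage divided by the estimated depth, leaving out the 2 libraries highest in atrial genes and the marker mean without Pi16 were added after seeing the data. Protein sequences were not used here, and 1 marker list is not reported here. Figures were drawn with Python 3.11.15 and matplotlib 3.10.9.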

Additional observations from a re-analysis of the deposited data

How the results depend on the processing

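Bgn, Vcan, Fmod, Prelp and Aspn kept their direction and passed the adjusted p under all 21 alternatives. The call of Dcn was lost in 13 of the 21 (log2 FC 0.19 to 0.73, limma adjusted p 0.00668 to 0.430) and that of Lum in 15 (0.37 to 0.95, 0.00864 to 0.272). Ogn passed in 5 (-0.76 to -0.27, 0.0133 to 0.309), Omd in 2 and Podn in 2. Podn changed direction with length and GC trends removed, at -0.084. The number of members up-regulated ran from 5 to 8 and that of member DEGs from 4 to 5. The number of members down-regulated was 0 as reported, 1 (Ogn) after median-ratio scaling, after upper-quartile scaling and with length and GC trends removed, and 0 to 1 when 1 mouse was left out. Over all tested genes, 3757 passed the adjusted p as reported, 5687 with TPM and 1986 with Xist as a covariate, and 701 were DEGs as reported, 1140 with TPM and 1121 with a pseudocount of 0.1. The split of calls depended on the scaling, with 3211 genes higher and 546 lower as reported, 1563 and 1431 after median-ratio scaling, and 1800 and 1748 with length and GC trends removed. The median log2 FC of all genes was 0.22 as reported, 0.38 with TPM and 0.01 after upper-quartile scaling. The cause of these differences was not tested.

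No pairing of the mice by number was seen. Same-numbered mice of the 2 groups had correlations of their deviations of 0.19, -0.10, -0.32, -0.033 and 0.041, and 1 of the 10 correlated best with its own number. So few correlations cannot exclude a pairing. With the replicate block, 5 members were up-regulated, none was down-regulated and 5 were DEGs, and 3426 genes passed the adjusted p and 704 were DEGs.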
